A study of Mus musculus with 6 samples.

Results

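The genes of transforming growth factor beta (TGF-β), activin and bone morphogenetic protein (BMP) signaling were compared between control and senescent fibroadipogenic progenitors (FAPs), the mesenchymal stromal cells of skeletal muscle. They were chosen by name, as 48 symbols in 7 classes: 12 ligands, 6 secreted antagonists, 4 latent TGF-β binding proteins, 12 receptors and coreceptors, 8 SMADs, 4 inhibitor of DNA binding (ID) targets and 2 SMAD corepressors. Of the 48, 47 had a value among the 16894 genes listed, and 46 passed the filter on low values, which left 14776 genes in all. Mstn, which encodes myostatin, was not analysed here, since the table used had no row for it. Acvr2b, a type II activin receptor, was listed at 0.0951 to 0.377 CPM, read counts scaled to the size of each library, and did not pass; fitted without the filter, it was not called (0.14 ± 0.20, adjusted p = 0.602).

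RNA-seq had been run on 6 libraries, 3 from control and 3 from senescent FAPs. All came from C57BL/6 mice, which by the study's methods were males and females aged 3 to 6 months. The FAPs were sorted magnetically from hindlimb muscles as cells positive for SCA-1 and negative for CD45, CD31 and α7-integrin, and grown in medium with serum and bFGF. Senescent FAPs had received 20 µM etoposide, a topoisomerase II poison that breaks DNA, for 48 h and were then kept for 5 days in normal medium; for control FAPs the labels name no treatment. Both groups were therefore cultured primary cells, and how many animals or isolations stand behind the 3 libraries of a group is not given, so the p-values measure the spread between these libraries.

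In this family, a dimeric ligand binds a pair of type II and type I receptor kinases, and the type I receptor phosphorylates receptor-regulated SMADs, which join SMAD4 and act in the nucleus. TGF-βs and activins signal mainly through SMAD2 and SMAD3, and BMPs through SMAD1, SMAD5 and SMAD9, with the ID genes among the best known direct BMP targets. TGF-βs are secreted in a latent form tethered by latent binding proteins, while proteins such as follistatin, noggin and gremlin sequester activins or BMPs outside the cell. In muscle, TGF-β is known for driving fibrosis and the matrix output of FAPs, and activins and myostatin are known for restraining muscle mass.

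Depth ranged from 41412179 to 59912520 reads on genes per library. The FAP markers Pdgfra, Ly6a, Cd34, Dcn, Thy1, Col6a1, Tcf7l2 and Pdgfrb were present in every library, with summed values of 2099.9 to 3088 CPM in control and 2423 to 3504 CPM in senescent FAPs. Of the 8, Ly6a (0.81), Cd34 (1.60) and Dcn (1.79) were called higher in senescent FAPs, with these log2 fold changes and groups apart, and the other 5 were not called. Libraries numbered 1 stood apart in Thy1, at 489 CPM in control and 615 CPM in senescent FAPs against 41.3 to 73.6 CPM in the others, so the counts below are also given without both of them. The difference between the groups was estimated for each gene with limma on log2(CPM + 0.5), as senescent minus control, and a gene was called where its Benjamini-Hochberg adjusted p over all 14776 genes was under 0.05. All log2 fold changes below are on that scale, which understates the change of genes near or under 1 CPM, and are given with their standard error. The fit did not pair libraries by replicate number, and a fit with that number as a block is given as an alternative.

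Senescent FAPs carried more mRNA for several BMP and GDF ligands, activin βB, the receptor genes Acvrl1, Tgfbr2, Tgfbr3, Eng and Bmpr2, and Smad3. They carried less for the receptor gene Bmpr1b and for the most abundant ligands, Inhba and Tgfb3. Of the 46 genes tested, 23 (50%) were called, 15 higher and 8 lower in senescent FAPs. Across all genes 46.1% were called, 21.8% higher and 24.3% lower, so the share called among signaling genes was near that of the transcriptome. With log2 fold changes beyond 1 in addition, 8 of the 46 signaling genes were called, all higher. Of all 14776 genes, 1650 (11.2%) were called so in either direction, and their split by direction was not counted. Among the 8, the calls of Bmp2 and Grem1 were unstable, as given below. The values of the groups did not overlap for 25 of the 46 genes, 14 higher and 11 lower, against 57.4% of all genes. The median log2 fold change was 0.11 over the 46 genes and -0.03 over all genes. In these bulk samples, fewer expressing cells and less RNA per cell cannot be told apart.

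The number of genes called lower depended on scaling and on single libraries. When CPM were taken from library totals alone, without edgeR's scaling factors, the median of all genes moved to 0.17 and the split became 21 higher and 1 lower, with only Tgfb3 among the genes called lower. The count lower, 8 with all libraries, fell to 5 when control replicate 1 was left out, to 4 for control replicate 3, to 2 for senescent replicate 2 and to 3 for senescent replicate 3. In the same fits the count higher, 15 with all libraries, fell to 12, 11, 11 and 10. Calls over all genes fell as well, from 6810 to 5560, 5169, 4546 and 4906, so the loss was not limited to the signaling genes. Without both libraries numbered 1, 13 genes were called higher and 6 lower. Of the 23 called genes, 10 were called under every one of 19 alternatives (other pseudocounts, filters, scalings and models, and left-out libraries): Inhbb, Bmp6, Gdf15, Gdf10, Tgfb3, Acvrl1, Tgfbr2, Tgfbr3, Eng and Smad3. None of the 23 changed direction under any of them.

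**Figure D1:**
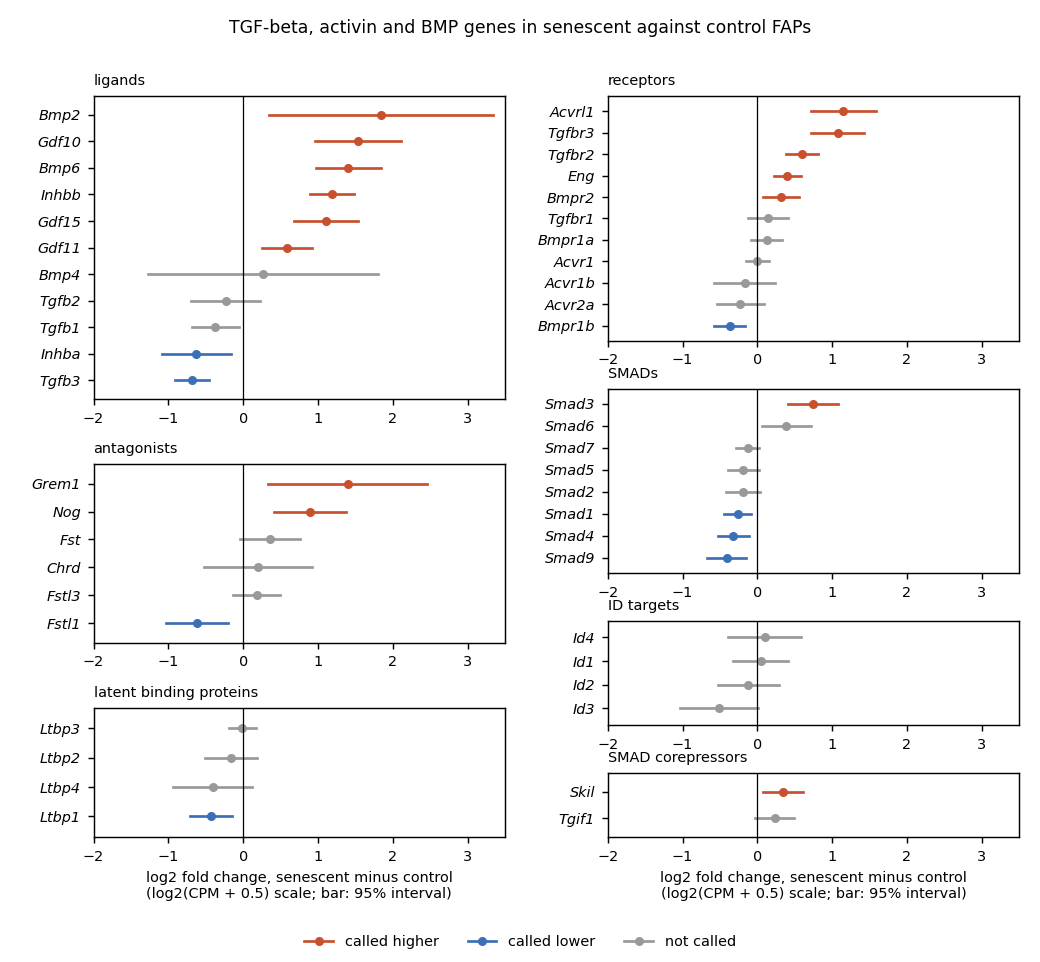
Log2 fold change of each of the 46 tested genes (x axis, senescent minus control on the log2(CPM + 0.5) scale), by class, with its unadjusted 95% interval as a bar and the call at adjusted p under 0.05 as colour. Ligands and receptors hold 7 of the 8 genes called beyond 1, and no ID gene is called.

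Activins are dimers of inhibin β chains, and the 2 chains measured here moved in opposite directions. Inhba (chr13:16011851-16031621, plus strand, GRCm38), which encodes βA, was at 892, 1592 and 1075 CPM in control replicates 1 to 3 and at 788, 738 and 707 CPM in senescent replicates 1 to 3. All senescent libraries lay below all control libraries, and control replicate 2 was well above the other controls. Inhba fell by 0.63 (log2 fold change -0.63 ± 0.20, adjusted p = 0.0340). Leaving out control replicate 2 brought the log2 fold change to -0.40, still called. The call was lost with library totals alone, with quantile normalization and without control replicate 3 or any 1 senescent library, with adjusted p up to 0.131. Inhbb (chr1:119415465-119422248, minus strand), which encodes βB, was at 36.5, 44.9 and 39.2 CPM in control and at 109.9, 84.2 and 84.4 CPM in senescent FAPs. Every senescent library was far above every control library, and Inhbb rose by 1.19 ± 0.13 (adjusted p = 0.000483), the smallest adjusted p of the 46 genes. Inha, which encodes the inhibin α chain, was at a mean of 2.41 CPM in control and 2.44 CPM in senescent FAPs and was not called.

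Because both activin chains were called, in opposite directions, their promoter windows are shown, chosen after the values were seen. They run from 250 bases before to 50 bases after the RefSeq transcription start in GRCm38.p6, at chr13:16011601-16011900 on the plus strand and chr1:119422199-119422498 on the minus strand, 5′ to 3′. Capitals mark GTCT or its reverse complement AGAC, the 4 letters to which SMAD3 and SMAD4 bind; CAGAC and GGCGCC were also searched on both strands and had no match in these 2 windows.
Inhba: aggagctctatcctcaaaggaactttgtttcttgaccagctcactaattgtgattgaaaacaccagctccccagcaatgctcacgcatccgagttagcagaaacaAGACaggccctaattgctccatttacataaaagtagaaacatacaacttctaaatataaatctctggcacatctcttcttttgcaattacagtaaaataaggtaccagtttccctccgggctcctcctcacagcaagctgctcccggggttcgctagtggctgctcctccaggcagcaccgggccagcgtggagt
Inhbb: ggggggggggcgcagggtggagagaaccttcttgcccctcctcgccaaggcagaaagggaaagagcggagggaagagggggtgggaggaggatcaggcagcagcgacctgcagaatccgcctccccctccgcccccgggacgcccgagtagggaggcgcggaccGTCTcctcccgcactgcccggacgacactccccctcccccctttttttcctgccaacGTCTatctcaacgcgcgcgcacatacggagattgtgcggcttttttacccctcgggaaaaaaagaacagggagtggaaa
The Inhba window held 1 match to GTCT and the Inhbb window held 2. Of 32851 promoter windows of the same length, 88.0% held GTCT on either strand, so a match does not set these genes apart. The 2 windows differed in base composition, with 47.7% G and C for Inhba and 64.3% for Inhbb.

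Of the 3 TGF-β isoforms, Tgfb3 fell, and it was also the isoform with the highest level. Tgfb3 (chr12:86056745-86079041, minus strand) was at 292, 315 and 349.5 CPM in control and at 220.3, 185 and 189.5 CPM in senescent FAPs. The groups were clearly apart, and the log2 fold change was -0.68 ± 0.10 (adjusted p = 0.00162). Exons of other genes on the opposite strand cover 12.4% of its exon length, and strand use in the counting is not stated; such overlap is 5.74% for Bmp6, 9.34% for Ltbp2 and 7.84% for Acvr2a. Tgfb1, at 84.1 ± 16.5 CPM in control and 64.0 ± 2.93 CPM in senescent FAPs (SD, n = 3), was not called (-0.37 ± 0.13, adjusted p = 0.0533), although its groups did not overlap, and it passed when replicate number was a block (adjusted p = 0.0159). Tgfb2, at 53.6 ± 14.6 and 44.4 ± 4.81 CPM, was not called (-0.24 ± 0.20, adjusted p = 0.363).

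Among BMPs and growth differentiation factors (GDFs), 5 of the 6 tested were called and all 5 were higher. Of all genes, 46.1% were called and 21.8% were called higher. The call of Bmp2, 1 of the 5, was unstable, as given below. Bmp6, known as an inducer of hepcidin and of bone formation, was at 6.87, 4.54 and 6.01 CPM in control and at 13.1, 17.3 and 18.2 CPM in senescent FAPs. Its groups did not overlap, and it rose by 1.41 ± 0.19 (adjusted p = 0.00108). Gdf15, a divergent ligand induced by cell stress that acts through a receptor in the hindbrain, was at 1.74, 1.16 and 1.76 CPM in control and at 4.59, 3.65 and 3.53 CPM in senescent FAPs. All senescent libraries lay above all controls at this low level, and the log2 fold change was 1.11 ± 0.18 (adjusted p = 0.00263). Gdf10, also called Bmp3b, was at 1.27, 0.951 and 2.32 CPM in control and at 5.64, 4.92 and 4.77 CPM in senescent FAPs. It was likewise higher in every senescent library (1.53 ± 0.25, adjusted p = 0.00235). Gdf11, the closest relative of myostatin, was at 19.0, 26.9 and 22.8 CPM in control and at 30.4, 34.4 and 38.3 CPM in senescent FAPs. Its rise of 0.58 ± 0.14 (adjusted p = 0.0130) was smaller, with groups apart, and missed the threshold only without senescent replicate 3 (adjusted p = 0.0546).

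Bmp2, an osteogenic and chondrogenic ligand, had the highest log2 fold change of the 46 genes, and its call was lost under the most alternatives. It was at 0.268, 4.91 and 0.951 CPM in control and at 4.13, 6.32 and 8.37 CPM in senescent FAPs. Control replicate 2 lay above senescent replicate 1, so the groups overlapped, and the other controls were several-fold lower. The log2 fold change was 1.85 ± 0.64 (adjusted p = 0.0479). Leaving out control replicate 2 gave 2.63, leaving out control replicate 1 gave 1.22, and 12 of the 19 alternatives lost the call, with adjusted p up to 0.205. Bmp4 was at 0.268, 2.43 and 3.05 CPM in control and at 0.596, 3.13 and 3.02 CPM in senescent FAPs. Its variation followed the replicate number, since both libraries numbered 1 were low, and it was not called (0.27 ± 0.66, adjusted p = 0.763).

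**Figure D2:**
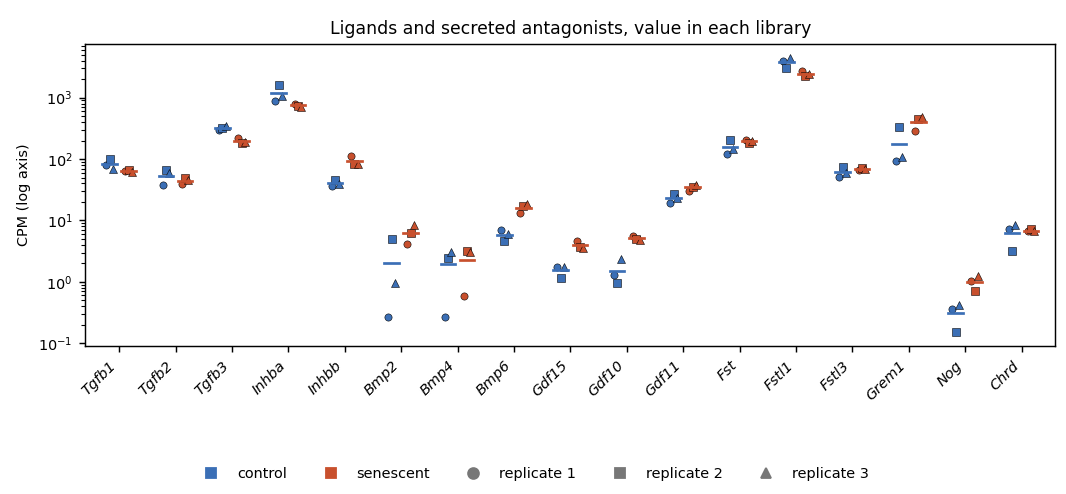
CPM (log axis) of the 11 listed ligands and 6 antagonists in each library, control in blue and senescent in orange, with the marker shape giving the replicate number and the short line the group mean. Inhbb, Bmp6, Gdf15, Gdf10, Gdf11 and Nog show senescent points above all control points, while control replicate 2 (square) reaches the senescent range in Bmp2 and Grem1.

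Levels were compared between ligands per length, as TPM, in which reads were divided by the merged GENCODE exon length and then scaled to the same total in each library. In control FAPs the order began with Inhba (654 ± 208 TPM), Tgfb3 (332 ± 34.3), Tgfb1 (58.6 ± 11.9) and Inhbb (33.3 ± 3.98), each apart from the next except that Inhbb overlapped Tgfb2. In senescent FAPs Inhbb (87.3 ± 12.9 TPM) ranked 3, apart from Tgfb3 above it and Tgfb1 below it. As shares of the summed ligand TPM, which do not depend on the scaling of libraries, Inhba took 52.7% to 63.0% in control and 48.7% to 50.1% in senescent FAPs. Inhbb took 2.67% to 3.24% in control and 8.58% to 10.4% in senescent FAPs. Inhba therefore remained the leading ligand transcript in both groups, with a smaller share in senescent FAPs, and the share of Inhbb did not overlap between groups.

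Of the 6 secreted antagonists, 2 were called higher and 1 lower, in all 50%, near the 46.1% of all genes. Grem1 (chr2:113746164-113758646, minus strand), which encodes the BMP antagonist gremlin, was at 93.4, 332 and 108 CPM in control and at 282, 449.8 and 488 CPM in senescent FAPs. Control replicate 2 exceeded senescent replicate 1, as for Bmp2, so the groups overlapped. Its log2 fold change was 1.40 ± 0.46 (adjusted p = 0.0386), changing to 1.97 when control replicate 2 was dropped and to 1.06 when control replicate 1 was, and 8 of the 19 alternatives lost the call, with adjusted p up to 0.127. Nog, which encodes the BMP antagonist noggin, was barely expressed, at 0.357, 0.152 and 0.413 CPM in control and at 1.05, 0.719 and 1.24 CPM in senescent FAPs. All senescent libraries were higher (0.90 ± 0.21, adjusted p = 0.01002), and the call was lost with quantile normalization (adjusted p = 0.0621), while the filter at 2 CPM left Nog untested. Fstl1, a secreted follistatin-like glycoprotein, was at 3979.6, 3055 and 4384 CPM in control and at 2759, 2231 and 2409 CPM in senescent FAPs. Its groups did not overlap, and it fell by 0.62 (-0.62 ± 0.18, adjusted p = 0.0260), a call that 7 of the 19 alternatives lost, with adjusted p up to 0.479.

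The other antagonists were not called. Fst, which encodes the activin antagonist follistatin, was at 156 ± 42.0 CPM in control and 195 ± 9.33 CPM in senescent FAPs (0.36 ± 0.17, adjusted p = 0.125). Fstl3, a relative of follistatin, was at 62.0 ± 12.3 and 69.3 ± 2.97 CPM, and Chrd, which encodes the BMP antagonist chordin, at 6.33 ± 2.78 and 6.84 ± 0.261 CPM. Exons of Prss57 on the opposite strand cover 47.3% of the exon length of Fstl3, so its value is uncertain if reads were counted without strand. As a share of the summed antagonist TPM, Fstl1 took 80.0% to 92.0% in control and 71.6% to 79.9% in senescent FAPs, and Grem1 took 2.56% to 10.3% and 9.68% to 17.3%, with overlap.

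Latent TGF-β binding proteins hold TGF-β in the matrix until it is released, and 1 of the 4 (25%) was called, against 46.1% of all genes. Ltbp1 was at 98.3, 130.6 and 99.8 CPM in control and at 78.3, 76.5 and 87.2 CPM in senescent FAPs, without overlap. It fell by 0.43 (-0.43 ± 0.12, adjusted p = 0.0225), and the call was lost under 3 alternatives, with adjusted p up to 0.188. Ltbp2, the most abundant of the class at 836 ± 155 TPM in control and 842 ± 47.4 TPM in senescent FAPs, binds little or no TGF-β, and it was not called (1944 ± 333 and 1721 ± 93.3 CPM, adjusted p = 0.406). Ltbp3, at 318 ± 14.2 and 315 ± 17.0 CPM, differed by a log2 fold change of -0.01 with a 95% interval of -0.19 to 0.17. Ltbp4 was at 21.5 ± 6.59 and 15.6 ± 2.06 CPM and was not called (-0.41 ± 0.23, adjusted p = 0.177).

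Of the 11 receptors tested, 5 were called higher and 1 lower, in all 54.5%, near the 46.1% of all genes. The summed value of the class was 1239 to 1271 CPM in control and 1535 to 1616 CPM in senescent FAPs. Acvrl1 (chr15:101128522-101145336, plus strand), which encodes the type I receptor ALK1, was at 47.1, 27.2 and 34.4 CPM in control and at 87.8, 77.3 and 72.6 CPM in senescent FAPs. All senescent libraries lay above all controls, and Acvrl1 rose by 1.15 ± 0.19 (adjusted p = 0.00237). Tgfbr3, which encodes the coreceptor betaglycan that presents TGF-β2 and inhibin, was at 67.4, 43.8 and 59.1 CPM in control and at 128, 109.6 and 117 CPM in senescent FAPs. It was also higher in every senescent library (1.07 ± 0.15, adjusted p = 0.00141). Tgfbr2, the type II receptor of TGF-β, was at 244, 200.4 and 236 CPM in control and at 362, 334 and 329 CPM in senescent FAPs. These groups did not overlap either (0.60 ± 0.09, adjusted p = 0.00219). Eng, which encodes the coreceptor endoglin, moved less, from 121 ± 8.16 CPM in control to 159 ± 7.42 CPM in senescent FAPs (0.40 ± 0.08, adjusted p = 0.00518).

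Acvrl1 and Eng are best known from endothelium, where they receive BMP9 and BMP10. Of 10 endothelial markers, Tie1, Cldn5 and Emcn had no row in the table, and the other 7 summed to 24.9 to 45.8 CPM in control and 29.2 to 36.7 CPM in senescent FAPs. Cdh5 stayed at or under 0.647 CPM in every library, Pecam1 rose from 0.467 to 1.03 CPM in control to 1.59 to 1.87 CPM in senescent FAPs, Vwf rose, and Kdr fell. Most of that sum was Tek, at 12.0 to 32.9 CPM in control and 18.3 to 25.1 CPM in senescent FAPs, which was not called. The sum was about the level of Acvrl1 in control FAPs (27.2 to 47.1 CPM) and below Acvrl1 in senescent FAPs (72.6 to 87.8 CPM). It was below Eng, which was at 113 CPM or more in each library. The part of such cells in the result was not tested.

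The remaining receptors moved little. Bmpr2, the type II BMP receptor, was at 210.5 ± 25.0 CPM in control and 260.2 ± 18.2 CPM in senescent FAPs (0.31 ± 0.10, adjusted p = 0.0422), and 7 alternatives lost the call, with adjusted p up to 0.138. Bmpr1b, a type I BMP receptor, fell from 30.8 ± 1.96 to 23.7 ± 1.33 CPM (-0.37 ± 0.09, adjusted p = 0.0126), a call lost with library totals alone (adjusted p = 0.173). The type I receptors Tgfbr1 (217 ± 29.1 and 239 ± 21.1 CPM), Bmpr1a (137 ± 6.94 and 149 ± 14.6 CPM) and Acvr1b (17.9 ± 4.27 and 15.6 ± 1.00 CPM) and the type II receptor Acvr2a (42.0 ± 6.82 and 35.6 ± 3.49 CPM) were not called. Acvr1, which encodes ALK2, was at 158 ± 4.22 CPM in control and 158 ± 3.14 CPM in senescent FAPs, with a 95% interval of its log2 fold change from -0.15 to 0.15. That flat result depended on scaling, since with library totals alone Acvr1 was called higher (0.21, adjusted p = 0.0265). Tgfbr1 and Bmpr1a were also called higher under that setting (adjusted p = 0.0441 and 0.0186). By TPM, Tgfbr2 ranked 4 among receptors in control (97.2 ± 8.92) and 1 in senescent FAPs (167 ± 7.30), and its range overlapped that of Eng in both groups and that of Tgfbr1 in control.

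**Figure D3:**
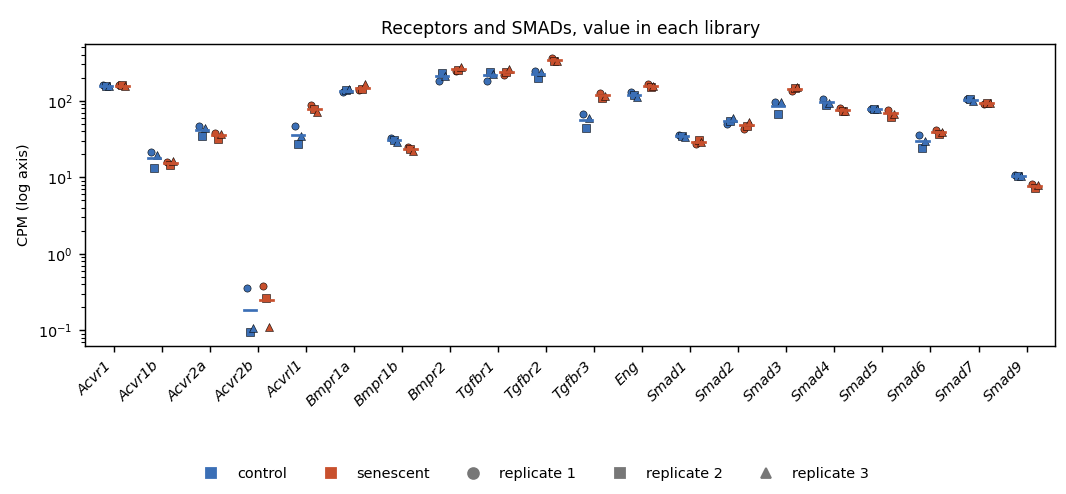
CPM (log axis) of the 12 receptors and 8 SMADs in each library, control in blue and senescent in orange, with the marker shape giving the replicate number and the short line the group mean. Acvrl1, Tgfbr2, Tgfbr3, Eng, Bmpr2, Smad3 and Smad6 show senescent points above all control points, and Acvr2b lies under 0.38 CPM throughout.

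Among the 8 SMADs, Smad3 rose and 3 others fell by less, in all 50%, near the 46.1% of all genes. Smad3 (chr9:63646767-63757994, minus strand), the receptor-regulated SMAD that binds DNA downstream of TGF-β and activin, was at 96.0, 67.2 and 96.3 CPM in control and at 134, 146 and 150.1 CPM in senescent FAPs. Every senescent library was above every control, and the log2 fold change was 0.74 ± 0.14 (adjusted p = 0.00470). Smad2, the other receptor-regulated SMAD of that branch, was at 54.7 ± 4.30 and 47.7 ± 4.76 CPM and was not called (-0.20 ± 0.10, adjusted p = 0.143). Smad4, the common partner of both branches, fell from 96.2 ± 9.22 CPM in control to 76.8 ± 4.42 CPM in senescent FAPs (-0.32 ± 0.09, adjusted p = 0.0219). The BMP-regulated Smad1 fell from 35.0 ± 1.01 to 29.1 ± 1.49 CPM (-0.27 ± 0.08, adjusted p = 0.0276), and Smad9 from 10.5 ± 0.261 to 7.79 ± 0.548 CPM (-0.41 ± 0.11, adjusted p = 0.0202). Smad5, the other SMAD of that branch, was at 78.1 ± 0.232 and 68.6 ± 7.50 CPM and was not called. All 3 falls were lost with library totals alone, with adjusted p of 0.317 for Smad4, 0.589 for Smad1 and 0.153 for Smad9, and in all 6, 8 and 6 of the 19 alternatives lost them.

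The inhibitory SMADs block receptor signaling and are themselves induced by it. Smad7, at 103 ± 3.55 CPM in control and 93.6 ± 2.51 CPM in senescent FAPs, was not called (-0.13 ± 0.07, adjusted p = 0.142). Smad6, at 30.3 ± 5.93 and 39.3 ± 2.12 CPM, narrowly missed the threshold (0.39 ± 0.14, adjusted p = 0.0557) and passed it with the replicate block (adjusted p = 0.0173). By TPM, Smad3 ranked 3 among SMADs in control (54.8 ± 10.2), after Smad4 (91.0 ± 7.24) and Smad7 (79.7 ± 2.57), and 1 in senescent FAPs (104 ± 7.0), each time apart from its neighbours in the order. As a share of the summed SMAD TPM it took 13.3% to 17.6% in control and 24.1% to 26.7% in senescent FAPs, while Smad4 took 25.7% to 27.4% in control and 19.7% to 22.0% in senescent FAPs.

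**Figure D4:**
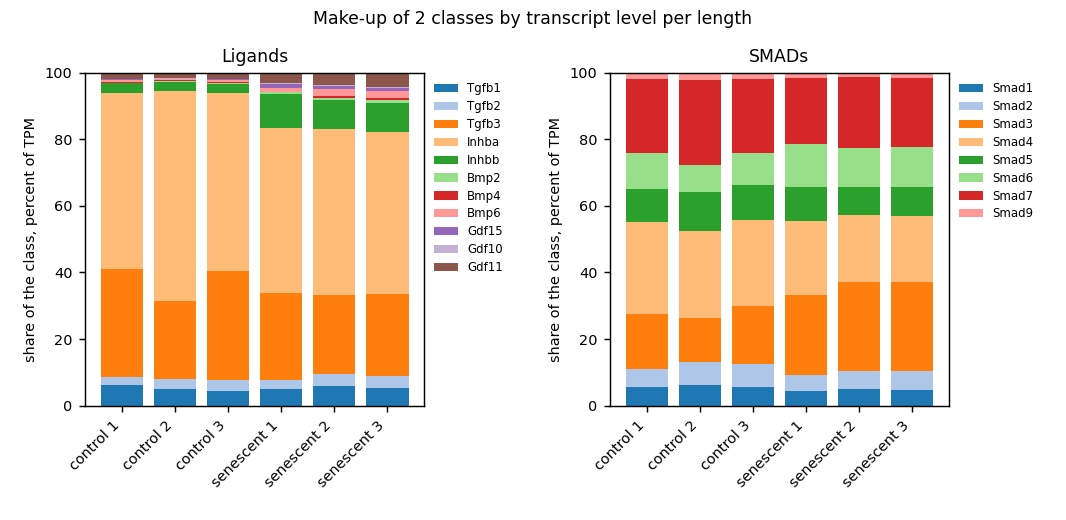
Share of each gene in the summed TPM of its class (y axis, percent) in each of the 6 libraries, for the ligands (left) and the SMADs (right). Inhbb widens from at most 3.24% in control to at least 8.58% in senescent FAPs, and Smad3 from at most 17.6% to at least 24.1%.

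The promoter windows of Smad1, Smad3 and Smad9, which are 3 of the 4 called SMADs and moved in opposite directions, are shown; that of Smad4 is not shown here. They span 250 bases before to 50 bases after the RefSeq start in GRCm38.p6, at chr8:79399379-79399678 (minus strand), chr9:63757945-63758244 (minus strand) and chr3:54755332-54755631 (plus strand), 5′ to 3′. Capitals mark GTCT, its reverse complement AGAC and GGCGCC, a sequence bound by BMP-regulated SMADs; CAGAC, which contains AGAC, had no match.
Smad1: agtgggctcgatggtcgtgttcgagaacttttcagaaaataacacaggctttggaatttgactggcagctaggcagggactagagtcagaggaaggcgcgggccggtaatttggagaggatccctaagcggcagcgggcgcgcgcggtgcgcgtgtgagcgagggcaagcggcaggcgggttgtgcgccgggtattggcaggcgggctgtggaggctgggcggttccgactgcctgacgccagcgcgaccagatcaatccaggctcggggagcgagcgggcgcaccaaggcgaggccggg
Smad3: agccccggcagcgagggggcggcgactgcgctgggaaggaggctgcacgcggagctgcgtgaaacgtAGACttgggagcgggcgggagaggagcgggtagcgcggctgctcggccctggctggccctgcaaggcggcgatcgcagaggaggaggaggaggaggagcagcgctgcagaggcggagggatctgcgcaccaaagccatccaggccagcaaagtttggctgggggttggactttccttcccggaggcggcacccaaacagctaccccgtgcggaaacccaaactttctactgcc
Smad9: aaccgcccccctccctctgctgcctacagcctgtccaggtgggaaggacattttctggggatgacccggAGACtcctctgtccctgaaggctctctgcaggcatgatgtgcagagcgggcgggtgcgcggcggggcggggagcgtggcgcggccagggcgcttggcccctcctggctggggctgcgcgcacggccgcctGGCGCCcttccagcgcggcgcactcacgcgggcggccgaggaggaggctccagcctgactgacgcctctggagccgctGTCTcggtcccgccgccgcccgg
The Smad1 window held none of the 3 motifs, the Smad3 window held 1 GTCT, and the Smad9 window held 2 GTCT and 1 GGCGCC. Of all 32851 windows, 49.6% held CAGAC, 88.0% held GTCT and 11.9% held GGCGCC.

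The ID genes, which encode helix-loop-helix proteins that block differentiation factors and are widely used as a readout of BMP signaling, showed no call in either direction. Id1 was at 39.7, 43.6 and 28.2 CPM in control and at 36.2, 36.4 and 40.5 CPM in senescent FAPs, with a log2 fold change of 0.04 and a 95% interval of -0.32 to 0.41. Id2, at 37.6 ± 8.70 and 34.1 ± 4.81 CPM, and Id4, at 10.2 ± 1.62 and 11.1 ± 3.25 CPM, also overlapped. Id3, the most abundant, was at 409, 212 and 293 CPM in control and at 244, 193 and 186 CPM in senescent FAPs. It was lower in senescent FAPs at each replicate number, with log2 differences of -0.74, -0.13 and -0.66 for replicates 1 to 3, but the groups overlapped. Its log2 fold change of -0.51 ± 0.23 was not called (adjusted p = 0.1001) and passed with the replicate block (adjusted p = 0.0130). Of the SMAD corepressors, Skil, which encodes SnoN, rose from 130.3 ± 19.9 to 165 ± 10.5 CPM (0.34 ± 0.11, adjusted p = 0.0394), a call that 7 alternatives lost, with adjusted p up to 0.129. Tgif1, at 55.2 ± 4.30 and 65.0 ± 8.49 CPM, was not called.

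A further 89 genes of the pathway were examined, of which 68 were listed and 61 tested; 12 were called higher and 16 lower, in all 45.9% of those tested, near the 46.1% of all genes. The count higher was 7 without control replicate 3 or senescent replicate 2, and the count lower was 9 without senescent replicate 2 or 3. Calls over all genes also fell, from 6810 to 5169 without control replicate 3 and to 4546 and 4906 without senescent replicates 2 and 3. Of 21 other ligands, 9 were listed, 7 were tested and 4 (57.1%) were called, all higher. Of all genes, 46.1% were called and 21.8% were called higher. Gdf6, a BMP-type ligand of joints and tendon, went from 2.14, 12.9 and 4.02 CPM in control to 18.5, 29.0 and 34.4 CPM in senescent FAPs (2.32 ± 0.54, adjusted p = 0.0107). Bmp8a went from 1.07 to 1.65 CPM in control to 5.42 to 8.03 CPM in senescent FAPs (1.98 ± 0.20, adjusted p = 0.000419). Lefty1, an inhibitor of Nodal, and Bmp8b rose by 1.24 ± 0.19 and 0.72 ± 0.21 (adjusted p = 0.00197 and 0.0259), both at or under 3.67 CPM in every library. These 4 called ligands thus shared the direction of the BMPs and GDFs called above, at low levels.

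Of 17 other antagonists and carriers, 10 were tested, with 4 called higher and 1 lower, in all 50%, near the 46.1% of all genes. The BMP antagonist Nbl1 rose by 0.71 ± 0.08, the pseudoreceptor Bambi by 0.72 ± 0.12 and the BMP carrier Twsg1 by 0.51 ± 0.10 (adjusted p = 0.000489, 0.00303 and 0.00470). Lrrc32, which encodes GARP, a cell-surface anchor of latent TGF-β, fell by 0.56 (-0.56 ± 0.12, adjusted p = 0.00759), from 1617 to 1922 CPM in control to 1115 to 1324 CPM in senescent FAPs. Of 6 other receptors and coreceptors, 2 were tested and Rgmb, a BMP coreceptor, rose by 0.35 ± 0.11 (adjusted p = 0.0361). Of 13 SMAD regulators tested, 3 were called, in all 23.1%, under the 46.1% of all genes. The ubiquitin ligase gene Smurf2 rose by 0.32 ± 0.10, while Smurf1 (-0.26 ± 0.08) and Fkbp1a (-0.43 ± 0.10), which encodes a protein that holds type I receptors inactive, fell (adjusted p = 0.0295, 0.0318 and 0.0112). Tgif2 and Ppm1a were called only with the replicate block (adjusted p = 0.0452 and 0.0414).

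Among 8 tested genes that process ligands or activate latent TGF-β, 1 rose and 3 fell, in all 50%, near the 46.1% of all genes. Pcsk5, a proprotein convertase, was at 20.4 to 27.0 CPM in control and 50.6 to 59.3 CPM in senescent FAPs (1.21 ± 0.12, adjusted p = 0.000391). Its relatives Furin (-0.48 ± 0.10, adjusted p = 0.00821) and Pcsk6 (-0.82 ± 0.17, adjusted p = 0.00662) fell, as did Itgav, the αV integrin chain (-0.52 ± 0.13, adjusted p = 0.0162). Convertases that cleave TGF-β family precursors thus moved in both directions.

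Of the genes known to be induced by TGF-β, those examined were lower in senescent FAPs or were not called. Of 15 tested, 0 were called higher and 8 lower, with a median log2 fold change of -0.75. Over all genes the median was -0.03 and 24.3% were called lower. In all, 53.3% of the 15 were called, against 46.1% of all genes. The 15 were chosen with earlier results of these data known, so their lean is no independent measure of TGF-β signaling. Col1a1 and Col1a2, the chains of type I collagen, were at 9978 to 21130.0 CPM and 7949.7 to 16986 CPM in control and at 2353 to 4073 CPM and 3412 to 4556 CPM in senescent FAPs. They fell by 2.29 and 1.67 (-2.29 ± 0.33 and -1.67 ± 0.31, adjusted p = 0.00150 and 0.00396). The contractile genes Acta2 (-1.49 ± 0.23, adjusted p = 0.00203) and Tagln (-1.01 ± 0.18, adjusted p = 0.00330) fell as well. Ccn2, also called connective tissue growth factor, was at 3218 CPM in control and 3438 CPM in senescent FAPs on average and was not called, nor were Fn1, Col3a1 and Pmepa1. With the replicate block Postn and Tgfbi were also called lower and Cdkn2b higher (adjusted p = 0.00503, 0.00118 and 0.0236). Of 8 tested BMP response genes, 2 were called higher and 2 lower, in all 50%, near the 46.1% of all genes. Bambi (0.72 ± 0.12) and Msx2 (0.79 ± 0.27, adjusted p = 0.0456) rose. The osteoblast regulators Sp7 (-1.37 ± 0.39, adjusted p = 0.0245) and Runx2 (-0.33 ± 0.10, adjusted p = 0.0293) fell. Alpl was called lower only with the replicate block (adjusted p = 0.0372).

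**Figure D5:**
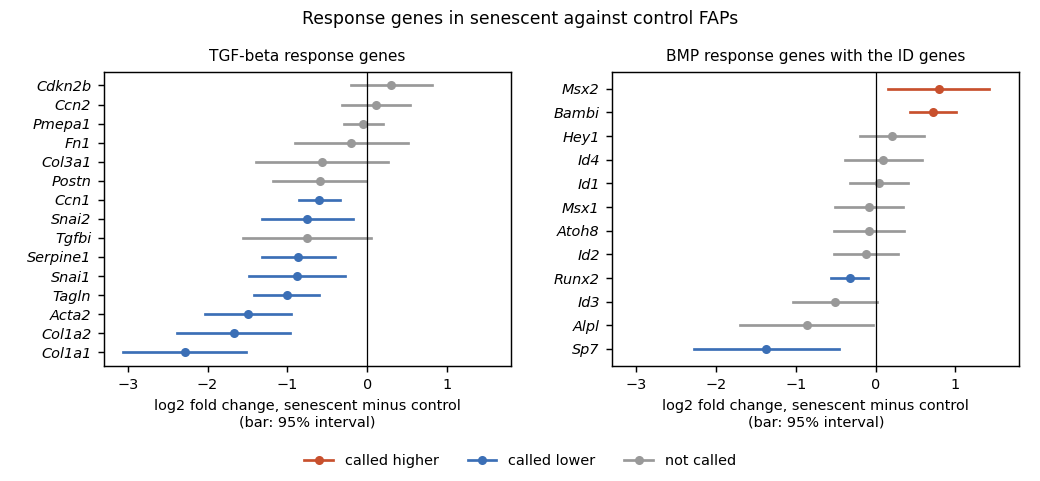
Log2 fold change (x axis, senescent minus control) of 15 TGF-β response genes (left) and of 8 BMP response genes with the 4 ID genes (right), with unadjusted 95% intervals as bars and calls as colour. On the left 8 genes are called lower and 0 higher, and on the right 2 are called in each direction and no ID gene is called.

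Markers of other cell types moved with the groups and are given beside these values. Of 8 pericyte and smooth muscle markers, Rgs5 and Notch3 rose and Cspg4, Mcam and Cnn1 fell. The 8 summed to 562 to 628 CPM in control and 309 to 376 CPM in senescent FAPs. Most of that sum was Cspg4 and Cnn1, with means of 288 and 236 CPM in control and 167 and 76.0 CPM in senescent FAPs. Of 10 leukocyte markers, 5 were listed and 4 of them rose, with a sum of 10.9 to 13.8 CPM in control and 26.4 to 32.5 CPM in senescent FAPs, while Ptprc, Adgre1, Cd52, Cd3e and Cd79a had no row in the table. Of 10 myogenic markers, Pax7, Myod1, Myf5, Myog, Cdh15, Mymk and Ckm had no row. The other 3, Itga7, Chrna1 and Myh3, summed to 9.40 to 13.2 CPM in control and 17.0 to 25.1 CPM in senescent FAPs. Most of that sum was Itga7, which encodes the α7-integrin that the sort selected against. Itga7 was at 9.17 to 12.3 CPM in control and 15.7 to 23.6 CPM in senescent FAPs and was called higher (0.83 ± 0.18, adjusted p = 0.00771). Tendon markers summed to 102 to 231 CPM in control and 82.2 to 176 CPM in senescent FAPs, with Tnmd lower and Mkx higher, and glial markers to 3.28 to 7.34 CPM and 8.18 to 10.6 CPM, with S100b higher. The part of such cells in the changes above was not tested.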

How the data were processed

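Primary mouse FAPs were profiled by bulk RNA-seq from stranded mRNA libraries, 3 per group. The deposited values are a signal per gene, CPM of edgeR's effective library size, made by the authors, and no columns of comparisons were present. The submitters' processing notes name mm10, edgeR 3.10 and R 3.6.0; the aligner, counter, annotation, strand setting and filter are not given in the sources used here. Whole reads were recovered for 100% of values (tolerance 0.1), giving 41412179 to 59912520 reads per library and scaling factors of 0.917 to 0.940 in control and 1.07 to 1.09 in senescent libraries. The line named Unspecified, at most 0.00699% of reads, was left out of tests.

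Groups came from the sample labels. Genes at 0.5 CPM or more in 3 libraries were fitted with limma 3.58.1 (variance trend) in R 4.3.3 on log2(CPM + 0.5), two-sided, with Benjamini-Hochberg adjustment over all genes tested. CPM of the effective library size do not sum to a common total, and the planned test was run on them. An exact permutation test of 3 against 3 libraries cannot go below p = 0.1 and was not used. The script was tested on simulated data. TPM came from the recovered reads and merged exons of GENCODE M21, in which 15944 listed genes had 1 match by symbol. Promoter windows are from RefSeq (GRCm38.p6) and covered 37 of the 48 genes.

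The signaling genes, the other pathway genes and the markers were chosen with earlier results of these data known. Every signaling gene was named. Of the other pathway genes, up to 4 called genes per list with the smallest p were named, with both directions represented, besides genes whose call the replicate block changed and some uncalled genes chosen after their values were seen. Alternatives were 2 pseudocounts, 2 filters, 3 scalings, a replicate block, array weights, no variance trend, count models of the recovered reads in DESeq2 1.42.0 and edgeR 4.0.16 (quasi-likelihood), leaving out each library, and, chosen after seeing the data, leaving out both libraries numbered 1. Deviations from the group means of same-numbered libraries correlated at 0.537, 0.308 and 0.207 over genes. Differently numbered libraries correlated at -0.357 to 0.153, the highest being control replicate 2 with senescent replicate 3. The numbers, which come from the sample titles, were therefore taken to pair the libraries. The main fit did not use this pairing, so its p-values ignore it, and the replicate block is the alternative that uses it.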

Additional observations from a re-analysis of the deposited data

How the results depend on the processing

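None of the 23 called signaling genes changed direction, and 10 were called under all 19 alternatives, while 16 of the uncalled genes were called under at least 1. With the replicate block 16 signaling genes were called higher and 10 lower, adding Tgfb1, Id3 and Smad6, and 14 and 20 other pathway genes, adding 6; the block changed no other call of these genes. The cause of the following changes was not tested. Requiring a log2 fold change beyond 1 left 8 signaling genes higher and 0 lower, 4 other pathway genes higher and 5 lower, and 1650 genes in all, and requiring an adjusted p under 0.01 left 9 and 1, 6 and 8, and 3958. Signaling genes called lower numbered 1 with library totals alone, 4 with quantile normalization and 14 with array weights, and other pathway genes called lower numbered 9 with library totals alone. Leaving out libraries gave 2 to 12 signaling genes lower, 7 to 11 other pathway genes higher and 9 to 20 lower. Over all genes, such fits called 4546 to 7280. Signs turned only among uncalled genes. With library totals alone the log2 fold changes became 0.050 for Ltbp2, 0.20 for Ltbp3, 0.034 for Acvr1b, 0.015 for Smad2, 0.019 for Smad5, 0.082 for Smad7 and 0.088 for Id2. Quantile normalization gave 0.17 for Ltbp2 and 0.11 for Ltbp3, array weights gave -0.17 for Chrd, 0.062 for Ltbp3 and -0.22 for Id4, and Ltbp3 was at 0.0047 with median-of-ratios size factors, 0.013 with edgeR and 0.025 with DESeq2. Without libraries, the ranges were -0.42 to 0.84 for Bmp4, -0.19 to 0.45 for Chrd, -0.056 to 0.023 for Ltbp3, -0.011 to 0.023 for Acvr1, -0.14 to 0.17 for Id1, -0.29 to 0.045 for Id2 and -0.12 to 0.24 for Id4, which was at -0.095 without replicate 1 of both groups. The calls of Smad1, Smad4 and Ltbp1 were lost without single libraries, whereas those of Eng and Bmpr1b were not. Nog had no value with the filter at 2 CPM. Acvr2b had 5 to 19 reads per library, which limits its precision.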
